A study of Mus musculus with 12 samples.

Results

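The genes described here encode 10 inflammatory cytokines and chemokines of the mouse: the chemokines Ccl2, Ccl3, Ccl4, Ccl5, Cxcl1 and Cxcl12, the cytokines Il1b, Il6 and Tnf, and the macrophage growth factor Csf1. They were taken by name from a gene table of 53707 Ensembl genes, of which 48714 had a symbol in the annotation, and each of the 10 matched 1 row. Their RNA was measured in explants, which are whole retinas kept alive in culture medium, from wild-type C57BL/6J mice at 28 days of age. The explants were freed of the retinal pigment epithelium and kept for 48 hours in Neurobasal-A medium with either 5 mM or 25 mM glucose, the only labelled difference between the groups. Each concentration had 3 biological replicates, every one of them measured in 2 libraries that served as technical replicates. Technical replicate 1 of each pair is listed as batch 1 and technical replicate 2 as batch 2, which makes 12 libraries. Batch and technical replicate number therefore cannot be told apart. The counts of the technical replicates were summed, so that each comparison set 3 summed replicates against 3. The question was whether the glucose supply altered the RNA of these signals in the cultured retina.

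Chemokines are small secreted proteins that draw leukocytes along a concentration gradient through receptors on the cell surface. Ccl2 draws monocytes, Ccl3, Ccl4 and Ccl5 draw monocytes and T cells, Cxcl1 draws neutrophils, and Cxcl12 holds and guides cells that carry Cxcr4. Tnf and Il1b start inflammatory signalling through the transcription factor NF-kB, Il6 acts through Il6st and STAT3, and Csf1 sustains microglia and macrophages. In the retina, microglia are a main source of Tnf, Il1b and the Ccl chemokines, while Mueller glia, astrocytes and vascular cells also make Ccl2, Cxcl1, Il6 and Cxcl12. An explant has lost its blood supply, so no cells can enter it from the circulation during culture.

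Library totals ran from 14815285 to 36692484 estimated counts. Several libraries stood apart from their technical partner. Over the genes tested, the standard deviation of the log2 difference within a technical pair was 0.83 for replicate 1 at 5 mM and 1.03 for replicate 2 at 25 mM, against 0.66 to 0.70 for the other 4 pairs. The summed level of the 10 genes, in CPM (counts scaled to a common library size with TMM factors), was 1227 in the batch 1 library and 278 in the batch 2 library of replicate 1 at 5 mM. For replicate 2 at 25 mM the same sum was 67.4 in batch 1 and 1056 in batch 2. What a technical replicate was is not given in the sources used here, so the counts for the 10 genes and for the other gene lists are also given without these 2 replicates. Nothing in the labels says how the biological replicates relate to animals, and p-values measure the spread between these replicates only.

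The 10 transcripts covered a wide span of levels. Per kilobase of transcript, Ccl2 was the most abundant at 5 mM (282 ± 28.1 CPM per kb, SD, n = 3), and its replicates lay above those of Il6 in second place (182 ± 51.3). Il6 and Cxcl1 (175 ± 32.8) overlapped each other. A lower tier held Ccl5 (23.7 CPM per kb), Ccl3 (21.1) and Csf1 (18.1), whose replicates overlapped from one to the next, followed by Cxcl12 (12.2), Ccl4 (5.99), Tnf (2.36) and Il1b (0.431), each apart from its neighbour. At 25 mM the order was the same except that Csf1 (12.1) stood above Ccl3 (8.44), and Ccl2, Il6 and Cxcl1 then overlapped. Among the 10, the monocyte and neutrophil chemokines Ccl2 and Cxcl1 and the cytokine Il6 were thus far above Tnf and Il1b.

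No gene of the 10 passed the test in either direction. The test was the quasi-likelihood test of edgeR over 21061 genes, and a gene was called at a false discovery rate (FDR) under 0.05. Lower RNA at 25 mM was called for 0 of the 10, beside 0.513% of all genes tested, and higher RNA for 0 of the 10, beside 1.47%. DESeq2 called 2 of the 10 lower, beside 9.54% of all genes, and limma-voom called 0, beside 0.565%. Before adjustment, 4 of the 10 (Tnf, Ccl3, Cxcl12 and Csf1) had a p under 0.05 with lower RNA at 25 mM, a state that 15.5% of all genes shared. The log2 fold change of 25 mM relative to 5 mM was below 0 for 8 of the 10, with a median of -0.59, while the median over all genes was -0.01 and 50.7% of genes were below 0. In 2 of the 10, Cxcl12 and Tnf, all 3 replicates at 25 mM lay under all 3 at 5 mM, beside 15.8% of all genes. In 0 of the 10 did they all lie above, beside 16.0% of all genes. With the 2 replicates of unlike technical libraries left out, 0 of the 10 were called lower, beside 0.734% of all genes. The remaining replicates, 2 against 2, were lower without overlap for 5 of the 10 (Tnf, Ccl3, Ccl4, Cxcl12 and Csf1), beside 34.9% of all genes.

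**Figure D1:**
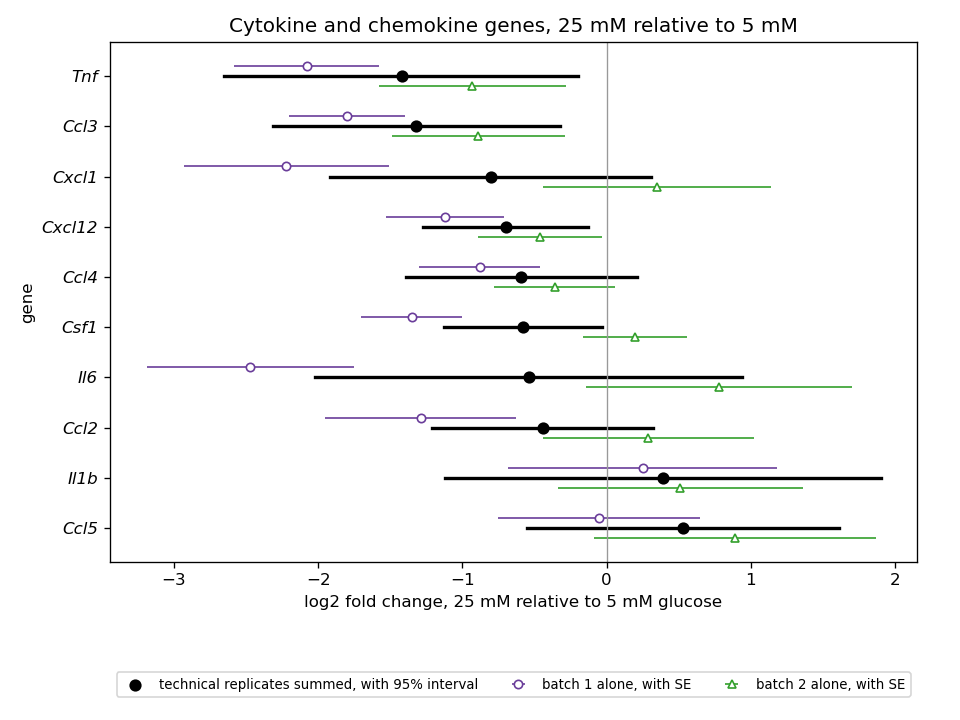
Each row is a gene and the horizontal axis is the log2 fold change of 25 mM relative to 5 mM glucose. Filled points are fits to summed technical replicates (3 against 3) with 95% intervals, and open circles and triangles are fits to batch 1 and batch 2 alone (3 libraries against 3) with standard errors. In Tnf, Ccl3, Ccl4 and Cxcl12 the 3 estimates are all below 0, while for Il6, Cxcl1, Ccl2 and Csf1 batch 1 is below 0 and batch 2 above it.

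Tnf, the founding member of its cytokine family, had the change of greatest size. Its RNA (ENSMUSG00000024401; GRCm38 chromosome 17, 35199381 to 35202007) measured 2.93, 4.23 and 4.23 CPM in replicates 1 to 3 at 5 mM and 0.464, 1.23 and 2.53 CPM at 25 mM. The groups did not overlap. The log2 fold change was -1.42 (SE 0.54, 95% interval -2.65 to -0.20), a mean level 2.69-fold lower, with an FDR of 0.132. The exact two-sided permutation test of the log2 CPM gave p = 0.1, the smallest that 3 against 3 replicates allow. These levels rest on modest counts: 162, 187 and 199 at 5 mM against 20, 45 and 112 at 25 mM.

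Ccl3 and Ccl4, the neighbouring genes of macrophage inflammatory protein 1 alpha and beta, lie side by side on chromosome 11. Ccl3 (ENSMUSG00000000982; 83647844 to 83649355) measured 9.63, 20.1 and 18.7 CPM at 5 mM and 3.38, 6.19 and 9.84 CPM at 25 mM. Only replicate 1 at 5 mM fell into the range of the other group. Its log2 fold change was -1.32 (SE 0.43, 95% interval -2.31 to -0.32), with an FDR of 0.103. Ccl3 was the member closest to the threshold: without replicate 1 at 5 mM it was called, with a log2 fold change of -1.58 and an FDR of 0.0258 (edgeR). That fit called 14.9% of all genes lower. Ccl4 (ENSMUSG00000018930; 83662584 to 83664683) measured 2.49, 5.66 and 3.70 CPM at 5 mM against 2.39, 2.35 and 3.12 CPM at 25 mM. The groups overlapped, and the log2 fold change of -0.59 (SE 0.35) had an FDR of 0.288 and an interval from -1.39 to 0.21.

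Cxcl12, which signals to cells with Cxcr4 and Ackr3, had the tightest replicates of the 10 at 5 mM. The gene (ENSMUSG00000061353; chromosome 6, 117168535 to 117181367) measured 35.2, 33.9 and 32.7 CPM at 5 mM and 14.0, 22.4 and 26.2 CPM at 25 mM. All replicates at 25 mM were lower (exact permutation p = 0.1). The log2 fold change was -0.70 (SE 0.25, 95% interval -1.27 to -0.13), and its FDR of 0.117 missed the threshold. Csf1 (ENSMUSG00000014599; chromosome 3, 107741048 to 107760469) measured 43.0, 54.4 and 56.1 CPM against 25.4, 32.1 and 45.0 CPM. Replicate 3 at 25 mM exceeded replicate 1 at 5 mM and the groups overlapped by this pair alone. Its log2 fold change was -0.58 (SE 0.24, 95% interval -1.13 to -0.03), with an FDR of 0.156.

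The abundant transcripts Il6, Cxcl1 and Ccl2 showed another pattern, in which the summed values of 1 replicate at 25 mM were low and those of the others were nearer to the 5 mM level. Il6 (ENSMUSG00000025746; chromosome 5, 30013114 to 30019981) measured 303, 169 and 262 CPM at 5 mM and 28.3, 245 and 231 CPM at 25 mM. Cxcl1 (ENSMUSG00000029380; chromosome 5, 90891241 to 90893115) measured 190.1, 160.4 and 233 CPM against 33.5, 140.4 and 161 CPM. Ccl2 (ENSMUSG00000035385; chromosome 11, 82035571 to 82037453) measured 248, 211 and 254 CPM against 86.0, 206 and 234 CPM. In each of them the low value was replicate 1 at 25 mM. The technical partners of that replicate differed in these genes too. Ccl2 measured 143 CPM in batch 1 and 31.6 CPM in batch 2, Cxcl1 52.6 and 15.6 CPM, and Il6 40.9 and 16.8 CPM. The log2 fold changes were -0.54 for Il6 (SE 0.64, FDR 0.592), -0.80 for Cxcl1 (SE 0.49, FDR 0.301) and -0.44 for Ccl2 (SE 0.33, FDR 0.399). Without that replicate they were -0.03, -0.36 and -0.11. Replicate 2 at 25 mM is a sum of unlike libraries, given below, and without it the log2 fold changes were -0.90, -0.99 and -0.56. The interval of Il6, from -2.02 to 0.94, spans 0 widely, so that the direction of its change could not be told from 3 replicates.

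Ccl5, a chemokine for T cells and monocytes, was higher on average at 25 mM. The gene (ENSMUSG00000035042; chromosome 11, 83525778 to 83530518) measured 6.85, 14.3 and 17.5 CPM at 5 mM and 9.27, 16.4 and 29.9 CPM at 25 mM. The groups overlapped, with a log2 fold change of 0.53 (SE 0.47, 95% interval -0.55 to 1.61) and an FDR of 0.474. Without replicate 3 at 25 mM, which held the highest value, the log2 fold change was -0.01.

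Il1b, the cytokine that inflammasomes release, was the only member near the limit of what could be judged. A gene was set down as too low to judge when it failed the filter on low counts or had a mean summed count under 30 at both concentrations. By that rule 0 of the 10 were too low, but Il1b passed it by a narrow margin, with mean counts of 27.3 at 5 mM and 31.0 at 25 mM. Its counts were 27, 20 and 35 at 5 mM and 8, 19 and 66 at 25 mM, or 0.488, 0.453 and 0.745 CPM against 0.185, 0.520 and 1.49 CPM. The 25 mM replicates thus held both the lowest and the highest value. The log2 fold change of 0.39 (SE 0.66, 95% interval -1.12 to 1.90, FDR 0.714) leaves its direction undetermined. The exons of Il1b (ENSMUSG00000027398; chromosome 2, 129364570 to 129371139) overlap those of the antisense gene Il1bos, and since strand use in counting is not stated, reads of the pair may be mixed.

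**Figure D2:**
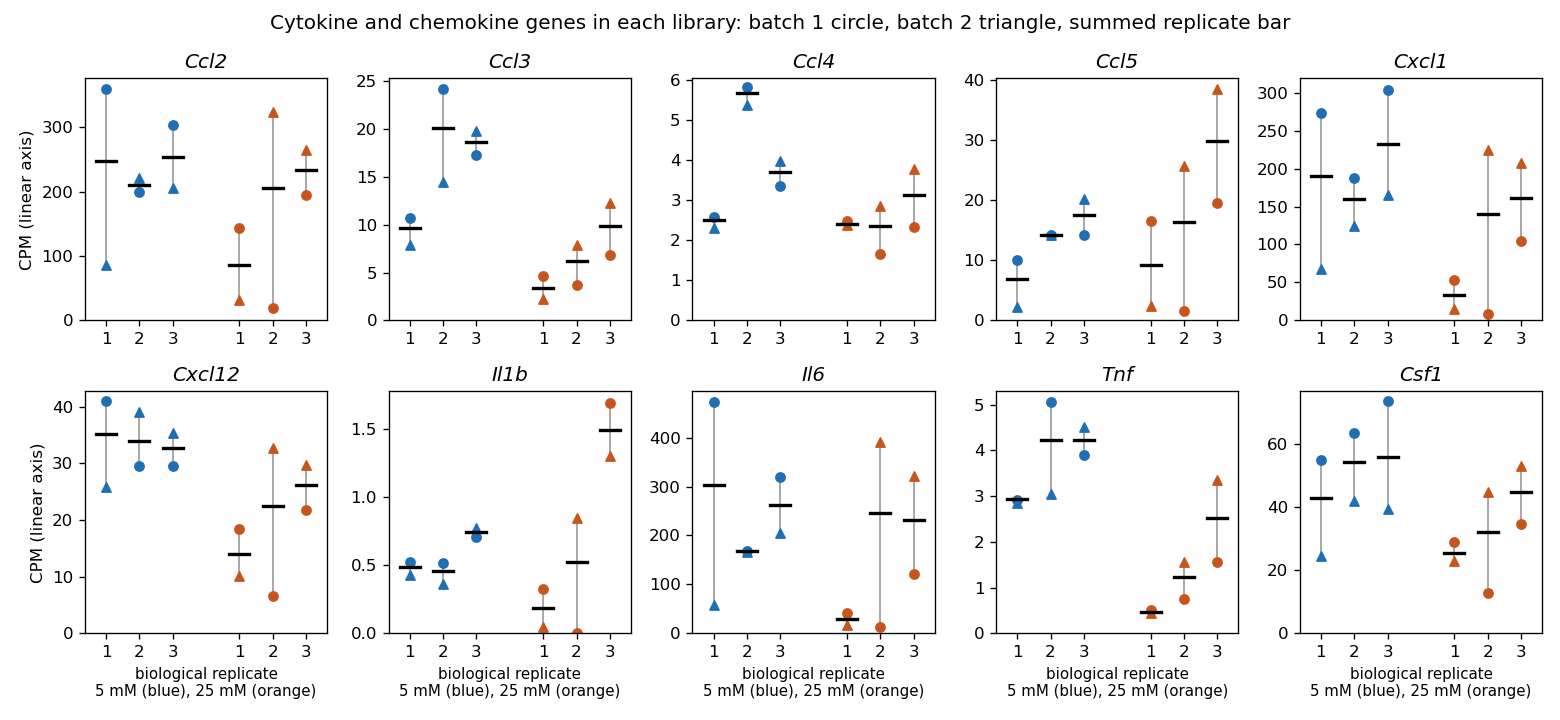
Each panel shows 1 gene, with CPM on a linear axis from 0 and the biological replicates of 5 mM (blue) and 25 mM glucose (orange) along the horizontal axis. Circles are batch 1 libraries, triangles batch 2 libraries, grey lines join technical partners and black bars are the summed replicates. The lines of Ccl4 span at most 1.73-fold and those of Tnf at most 2.16-fold, while Il6 in replicate 2 at 25 mM runs from 13.2 to 392 CPM and in replicate 1 at 5 mM from 472 down to 58.1 CPM.

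Technical partners differed far more in some of these transcripts than in others. In replicate 2 at 25 mM, Il6 measured 13.2 CPM in batch 1 and 392 CPM in batch 2, a 29.7-fold difference within 1 biological replicate. Cxcl1 differed there 28.1-fold (7.98 and 224 CPM), Ccl5 17.1-fold (1.51 and 25.8 CPM) and Ccl2 16.9-fold (19.1 and 324 CPM). These exceeded the differences of 99.5% or more of all genes in the same pair. In replicate 1 at 5 mM the difference had the opposite sign, with 472 CPM of Il6 in batch 1 and 58.1 CPM in batch 2, 8.12-fold less. Tnf differed 2.08-fold in the first of these pairs and 1.02-fold in the second, and Ccl4 1.73-fold and 1.12-fold. Over the 6 libraries of each concentration, Il6 had its lowest, median and highest values at 58.1, 187 and 472 CPM for 5 mM, and for 25 mM these were 13.2, 81.2 and 392 CPM. The corresponding values of Tnf were 2.84, 3.47 and 5.06 CPM against 0.435, 1.15 and 3.35 CPM. The libraries of Tnf overlapped through a single library at 25 mM, batch 2 of replicate 3. Those of Il6 overlapped between 58.1 and 392 CPM, while libraries of 13.2, 16.8 and 40.9 CPM at 25 mM lay under all at 5 mM.

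The comparison gave different numbers in each batch. In batch 1 alone, 4 of the 10 genes were called lower at 25 mM, beside 10.1% of all genes: Tnf (log2 fold change -2.08, FDR 0.0257), Ccl3 (-1.80, FDR 0.0203), Il6 (-2.47, FDR 0.046) and Csf1 (-1.35, FDR 0.0337; edgeR, 3 libraries against 3). All libraries at 25 mM lay under all at 5 mM for 8 of the 10, beside 20.6% of all genes. The exceptions were Ccl5 and Il1b. In batch 2 alone, 0 of the 10 were called lower, beside 0% of all genes. At an unadjusted p under 0.05 there were 0 of the 10 and 2203 of all genes (edgeR). There 0 of the 10 were lower without overlap, beside 7.91% of all genes. The log2 fold changes in batch 2 were -0.93 for Tnf, -0.89 for Ccl3, -0.46 for Cxcl12 and -0.36 for Ccl4, and above 0 for the other 6, with 0.78 for Il6. The median over the 10 was -1.32 in batch 1 and 0.24 in batch 2. The difference between batches was itself tested in a fit of the 12 libraries that blocked on the biological replicate. It was called for 0 of 18725 genes by edgeR, of which 3056 had an unadjusted p under 0.05. Of the 10, Csf1 had an unadjusted p of 0.0145 (FDR 0.224), and the largest estimate, a log2 difference of 2.74 for Il6, had an FDR of 0.42.

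The upstream sequences of Il6 and Cxcl1, whose technical partners differed most, and of Tnf, whose partners differed by 2.16-fold at most, are printed to show which signal-responsive elements they hold. The RefSeq promoter table of GRCm38.p6 held 7 of the 10 genes, and not Ccl2, Ccl4 or Ccl5. The 250 bases before the start were searched on both strands for the kappa B consensus bound by NF-kB, the AP-1 element TGANTCA, the C/EBP element TTGNGCAA and the TATA box TATAAA, and matches are in capitals below. The Il6 sequence is chr5:30012864-30013113 on the plus strand, that of Cxcl1 chr5:90890995-90891244 on the plus strand, and that of Tnf chr17:35202008-35202257 on the minus strand.
Il6: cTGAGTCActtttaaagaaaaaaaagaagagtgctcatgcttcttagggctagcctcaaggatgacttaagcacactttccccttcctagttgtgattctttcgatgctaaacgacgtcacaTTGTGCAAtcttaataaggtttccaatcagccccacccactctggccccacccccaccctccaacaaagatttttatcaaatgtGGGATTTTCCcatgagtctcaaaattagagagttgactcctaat
Cxcl1: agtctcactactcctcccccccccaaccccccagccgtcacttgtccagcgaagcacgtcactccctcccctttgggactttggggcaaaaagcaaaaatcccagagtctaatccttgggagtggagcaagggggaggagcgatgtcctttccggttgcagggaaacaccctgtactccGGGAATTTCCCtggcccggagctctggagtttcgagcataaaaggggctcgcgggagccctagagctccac
Tnf: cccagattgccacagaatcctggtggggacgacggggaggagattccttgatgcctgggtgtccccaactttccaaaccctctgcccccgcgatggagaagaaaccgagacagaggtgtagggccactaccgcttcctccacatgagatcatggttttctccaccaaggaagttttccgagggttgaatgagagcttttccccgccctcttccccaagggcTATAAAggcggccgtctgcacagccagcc
Il6 held an AP-1, a C/EBP and a kappa B match, at 249, 128 and 44 bases upstream of the start. Cxcl1 held overlapping kappa B matches on both strands, from 71 bases upstream. Tnf held a TATA box at 29 bases upstream and no match to the other motifs in this window. A kappa B match was present in 3 of the 7 genes (Il6, Cxcl1 and Csf1), and in 7.25% of all 32851 promoters of the table. An AP-1 match was present in 1 of the 7 and 6.75% of promoters, a C/EBP match in 1 of the 7 and 2.61%, and a TATA box in 2 of the 7 (Tnf and Il1b) and 12.4%. These matches are letters in a window and show nothing about binding.

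Transcript counts allowed the isoforms of Cxcl12 and Csf1 to be compared as shares of each gene. Cxcl12-202, which encodes the 89-residue alpha form, held 64.4%, 58.7% and 59.1% of the transcript counts at 5 mM and 77.7%, 73.0% and 69.9% at 25 mM. All shares at 25 mM were higher, with means of 60.7% ± 3.16 and 73.5% ± 3.93 (SD, n = 3) and a difference of 12.8 percentage points (exact permutation p = 0.1, the smallest possible). The difference was 17.8 points in batch 1 and 13.1 points in batch 2. The share of Cxcl12-203, the 93-residue beta form, was lower at 25 mM, at 5.53% ± 2.53 against 12.5% ± 2.59, again without overlap (exact permutation p = 0.1). Cxcl12-201, the 119-residue gamma form with the longest transcript, held 21.4% ± 6.86 at 5 mM and 15.8% ± 3.78 at 25 mM and overlapped (exact permutation p = 0.3). Shares of 1 gene sum to a whole, so these are not separate differences, and they rest on estimates that divide reads among similar transcripts.

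For Csf1, the transcript Csf1-202 of 257 residues held 52.9% ± 9.30 at 5 mM and 61.8% ± 1.13 at 25 mM (exact permutation p = 0.4). Csf1-201, one of the transcripts of the 552-residue protein, spread from 2.06% to 29.3% within the 5 mM group and from 2.68% to 8.85% at 25 mM (exact permutation p = 0.4). Csf1-203, which encodes 552 residues as well, held 10.8% and 10.9% (exact permutation p = 1). For each Csf1 transcript the replicates of the concentrations overlapped. Il6 transcripts were compared after their values were seen. Il6-203, of 208 residues, held 29.0% ± 3.94 at 5 mM and 15.5% ± 2.50 at 25 mM, without overlap (exact permutation p = 0.1), and Il6-201, the 211-residue form, held 46.2% ± 4.89 and 57.5% ± 8.20 (exact permutation p = 0.2).

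**Figure D3:**
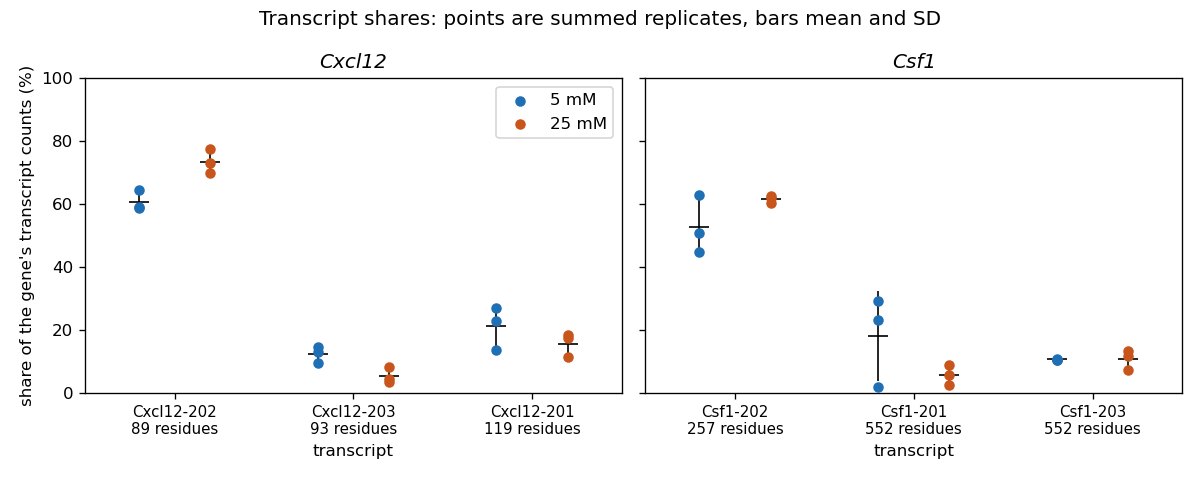
The vertical axis is the share of a gene's transcript counts in percent and the horizontal axis the transcript with the length of its protein, for Cxcl12 (left) and Csf1 (right). Points are summed replicates at 5 mM (blue) and 25 mM (orange), and bars are the mean and SD of 3. The points of Cxcl12-202 span 58.7% to 64.4% at 5 mM and 69.9% to 77.7% at 25 mM, while those of the Csf1 transcripts overlap.

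Of 16 receptor genes for these ligands, 15 were tested, 1 was called lower and 0 higher, beside 0.513% and 1.47% of all genes. The log2 fold change was below 0 for 11 of them, with a median of -0.82 (batch 1: -1.55, batch 2: -0.31), beside -0.01 over all genes. Without the 2 replicates of unlike libraries 0 receptors were called and the median was -0.97. The Il1b receptor Il1r1 was the 1 receptor called: it fell from 104, 87.6 and 101 CPM at 5 mM to 39.4, 53.7 and 56.2 CPM at 25 mM, a log2 fold change of -0.97 (SE 0.19, FDR 0.0460) with -1.55 in batch 1 and -0.31 in batch 2. Its co-receptor Il1rap had a log2 fold change of -0.24 (FDR 0.415). Cxcr4, the receptor of Cxcl12, measured 68.8, 135 and 140.4 CPM against 6.51, 24.9 and 43.1 CPM, a log2 fold change of -2.21 (SE 0.60, FDR 0.0741). Ackr3, which clears Cxcl12, went with it at -1.73 (FDR 0.0705). Both Tnf receptors were of similar size, Tnfrsf1a at -1.65 (FDR 0.0696) and Tnfrsf1b at -1.67 (FDR 0.0685). None of these 4 passed the test, and in all 4 the replicates at 25 mM lay under those at 5 mM, as they did in 15.8% of all genes.

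No other receptor was called. The Csf1 receptor Csf1r, a marker of microglia as well, had a log2 fold change of -1.19 (FDR 0.131), the Il6 receptor subunits Il6ra and Il6st -1.02 (FDR 0.123) and -0.35 (FDR 0.164). Among chemokine receptors, Ccr1 measured -0.42 (FDR 0.519), Ccr2 0.77 (FDR 0.272) and Cxcr2 0.36 (FDR 0.585). The scavenging receptors Ackr1 and Ackr2 measured 0.17 (FDR 0.681) and -0.82 (FDR 0.320). Ccr3 was not tested, with 0.0905 CPM or less in every replicate.

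Genes that act before and after these cytokines had log2 fold changes mostly below 0, and none of them was called, also without the 2 replicates of unlike libraries. Of 6 genes of cytokine processing, 6 had a log2 fold change below 0 (median -0.87) and 0 were called. Nlrp3, the inflammasome sensor, measured -1.65 (FDR 0.0776), Gsdmd, the pore through which Il1b leaves the cell, -1.52 (FDR 0.0989), Rhbdf2, a partner of the Tnf-shedding protease, -1.04 (FDR 0.253), and the adaptor Pycard -0.71 (FDR 0.238). Of 7 inhibitors and decoys, 6 were below 0 (median -0.52) and 0 were called, with -1.07 for Tnip1 (FDR 0.177), -0.87 for the receptor antagonist Il1rn (FDR 0.226), -0.72 for Nfkbia (FDR 0.204) and -0.52 for Socs3 (FDR 0.331). Of 16 other NF-kB targets and subunits, 15 were below 0, with a median of -0.79 and 0 called. The 4 of greatest size were Traf1 (-1.80, FDR 0.109), Nfkb2 (-1.64, FDR 0.0989), Cebpb (-1.33, FDR 0.0889) and Bcl3 (-1.04, FDR 0.131).

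Chemokines outside the 10 showed no common direction. Of 24 listed, 18 were tested, 8 were below 0 and the median log2 fold change was 0.07 (-0.05 without the 2 replicates of unlike libraries). Cxcl14, a chemokine best known from epithelia, was the 1 called, and fell from 22.0, 35.8 and 32.4 CPM to 9.44, 9.99 and 14.0 CPM, a log2 fold change of -1.43 (SE 0.26, FDR 0.0433) with -1.52 in batch 1 and -1.36 in batch 2. Over all genes 0.513% were called lower. Cxcl14 was the 1 called without the 2 replicates as well, beside 0.734% of all genes. Cxcl5 measured -1.64 (FDR 0.115), Cx3cl1, the neuronal ligand of microglial Cx3cr1, -0.95 (FDR 0.103), and Ccl6 0.92 (FDR 0.150). Of 20 other cytokines, 13 were tested, 10 were below 0 (median -0.45) and 0 were called. Il34, the neuronal ligand that shares Csf1r with Csf1, measured 2.01, 7.81 and 7.28 CPM at 5 mM against 1.44, 1.15 and 1.29 CPM at 25 mM. Its log2 fold change was -2.14 (SE 0.50, FDR 0.0618), without overlap, and it was called lower when the 2 replicates of unlike libraries were left out. Tgfb1 measured -1.62 (FDR 0.100), Il11 -1.25 (FDR 0.213) and Tnfsf10 -1.10 (FDR 0.0917).

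Markers of the cells that make and receive these signals mostly had log2 fold changes below 0, few of which passed the test. Of 20 microglial markers, 20 had a log2 fold change below 0, with a median of -1.03 (-1.50 and -0.46 in the batches) and 0 called. Of the 20, 10 were lower without overlap, beside 15.8% of all genes. The same held for 8 of 12 endothelial, 5 of 10 pericyte and smooth muscle and 6 of 8 fibroblast markers. The summed level of the 20 was 636 to 919 CPM at 5 mM and 245 to 564 CPM at 25 mM. The defining markers Tmem119 and P2ry12 were present at 0.278 CPM or more and 1.79 CPM or more in every replicate. Ctss, an abundant lysosomal protease of the list, measured -1.15 (FDR 0.104). Of 12 endothelial markers, 11 were below 0 (median -1.54, with -2.61 in batch 1 and -0.50 in batch 2, 0 called), with sums of 1320 to 2449 CPM against 479 to 1085 CPM, including Pecam1 at -1.94 (FDR 0.0732) and Kdr at -0.03 (FDR 0.915). Pericyte and smooth muscle markers had a median of -1.63 (-2.39 and -1.07 in the batches, 9 of 10 below 0, 0 called), among them Rgs5 at 0.09 (FDR 0.792) and Abcc9 at -1.32 (FDR 0.0712). The 8 fibroblast markers had a median of -1.21 (-2.20 and -0.65 in the batches) with 1 called lower, Col3a1 (-2.36, FDR 0.0326), beside 0.513% of all genes. Dcn measured -1.07 (FDR 0.199) and Col6a1 -0.92 (FDR 0.108). Without the 2 replicates of unlike libraries, 0 microglial, 0 endothelial, 1 pericyte (Pdgfrb) and 1 fibroblast marker (Col3a1) were called lower, beside 0.734% of all genes. The medians were then -1.14, -1.77, -1.85 and -1.24. In bulk tissue, fewer cells of a type and less RNA per cell cannot be told apart, and the part of cell numbers in the cytokine values was not tested.

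Blood leukocytes were represented by few transcripts. Of 10 monocyte and neutrophil markers, 6 were tested (median -1.27, 0 called). Of these 6, 5 were lower without overlap, beside 15.8% of all genes. Ly6g and S100a9 were at 0.0361 CPM or less in every replicate, S100a8 measured 5.92, 3.71 and 7.21 CPM at 5 mM against 0.139, 1.12 and 1.47 CPM at 25 mM (log2 fold change -2.62, FDR 0.0705), and Csf3r measured -1.53 (FDR 0.0827). Fn1 and Lyz2, which other cells also express, made up most of the summed 335 to 566 CPM at 5 mM and 119 to 307 CPM at 25 mM (log2 fold changes -0.88, FDR 0.109, and -1.53, FDR 0.0859). Perivascular macrophage markers summed to 68.6 to 73.6 CPM against 31.1 to 69.0 CPM (median -0.83, 0 called), with Pf4 at -0.85 (FDR 0.252) and Mrc1 at -0.95 (FDR 0.129). Of these 6 markers 5 were below 0, and Lyve1 was above it at 0.74 (FDR 0.258). Without the 2 replicates of unlike libraries 4 of the 6 were below 0, with a median of -0.31. T cell markers summed to 4.44 to 5.44 CPM against 5.17 to 6.95 CPM, with Cd3e and Cd3g at 0.113 CPM or less. Cd3d, at 0.915 to 3.42 CPM, had a log2 fold change of 0.94 (FDR 0.137), Cd8a 0.87 (FDR 0.101) and Lck -0.17 (FDR 0.687). Some defining genes of T cells and neutrophils were thus near 0 and others were detected, and 0 of these 3 lists' genes were called, also without the 2 replicates of unlike libraries.

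Glial markers had medians nearer 0, and rod markers were above 0. Of 12 Mueller glia markers, 7 were below 0 and 5 above, with a median of -0.14 and 0 called. Vim measured -1.51 (FDR 0.0555) and Glul -0.35 (FDR 0.425), while Aqp4 measured 0.76 (FDR 0.102) and Kcnj10 0.53 (FDR 0.182). Without overlap, 2 of the 12 were lower and 2 higher, beside 15.8% and 16.0% of all genes. The 5 astrocyte markers had a median of -0.34 with 0 called, Gfap at -0.34 (FDR 0.333) and Slc14a1 at 0.19 (FDR 0.595). Of the astrocyte markers 4 were below 0, with Pax2 at -1.78 (FDR 0.0767) and S100b at -0.84 (FDR 0.126) lower without overlap. Of 15 rod photoreceptor markers, 15 were above 0 (median 1.13) and 8 were called higher, beside 1.47% of all genes. Their sums went from 3635 to 6095 CPM at 5 mM to 8161 to 10564 CPM at 25 mM. Without the 2 replicates of unlike libraries 8 were called higher as well, beside 1.71% of all genes called in either direction. Gnat1, the rod transducin subunit and an abundant gene of the list, measured 0.45 (FDR 0.308). CPM are relative to the whole library, so these levels are not independent of each other. Pigment epithelium markers had a median of -0.33 (0 called), with Rpe65 at 0.0904 CPM or less in every replicate. Rlbp1, which Mueller glia share, measured -0.33 (FDR 0.293) and Ttr -0.83 (FDR 0.215). Of the 4 tested markers of ciliary body and lens, 2 were below 0 and 2 above (median -0.48, 0 called). Optc measured -2.06 (FDR 0.0652) and Wfdc1 -0.99 (FDR 0.161). The lens genes Cryaa and Cryba1, at 1.65 CPM or less in every replicate, measured 0.03 (FDR 0.987) and 1.17 (FDR 0.353).

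In the 2 pairs of unlike libraries the cytokine sum differed 15.7-fold and 4.42-fold, more than the sums of microglial, endothelial and rod markers. Most of the cytokine sum came from Ccl2, Il6 and Cxcl1. In replicate 2 at 25 mM, Tnf (2.08-fold), Ccl3 (2.14-fold) and Ccl4 (1.73-fold) differed less than the microglial sum (2.22-fold), and Cxcl12 (4.94-fold) and Csf1 (3.47-fold) more. In replicate 2 at 25 mM the microglial sum was 231 CPM in batch 1 and 512 CPM in batch 2, the endothelial sum 379 and 1156 CPM, the NF-kB target sum 393 and 1340 CPM and the rod sum 13215 and 5469 CPM, beside the 67.4 and 1056 CPM of the 10 cytokine genes. In replicate 1 at 5 mM the microglial sum was 758 and 445 CPM, the endothelial sum 1743 and 687 CPM and the rod sum 3521 and 3662 CPM, beside 1227 and 278 CPM. The cytokine, endothelial and microglial sums were thus higher in the same library of each of these pairs. Not every other pair did so. In replicate 1 at 25 mM the cytokine sum was 308 CPM in batch 1 and 105 CPM in batch 2. The endothelial sum there was 422 and 563 CPM and the rod sum 7256 and 14515 CPM. In replicate 3 at 5 mM the cytokine sum was 1071 and 699.9 CPM and the microglial sum 814 and 912 CPM. In replicate 2 at 5 mM the cytokine (698 and 631 CPM), endothelial (2982 and 1308 CPM) and microglial (1043 and 746 CPM) sums were all higher in batch 1. In replicate 3 at 25 mM they were all higher in batch 2 (511 and 934, 779.9 and 1334, 395 and 704 CPM). The part of tissue composition in these differences was not tested.

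**Figure D4:**
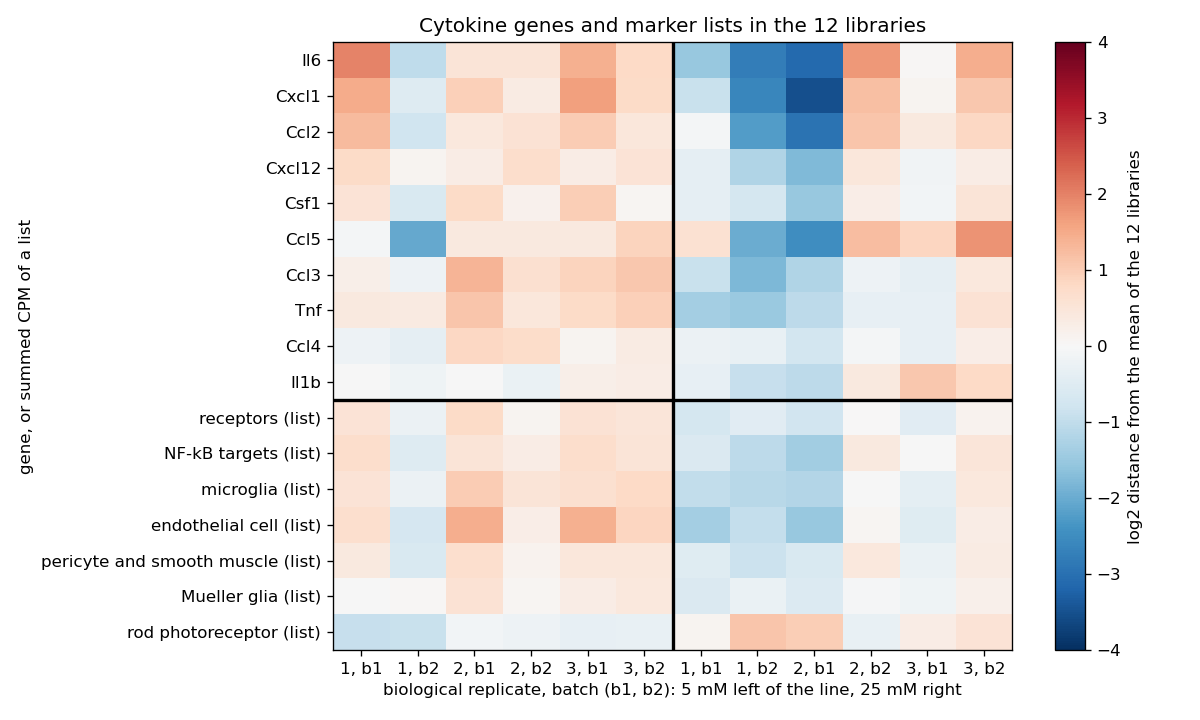
Columns are the 12 libraries by biological replicate and batch, with 5 mM left and 25 mM right of the vertical line. Rows are the 10 genes (upper block, log2 of CPM plus 0.5) and the summed CPM of 7 lists (lower block), each as the log2 distance from its mean over the 12 libraries. The batch 1 library of replicate 2 at 25 mM is the lowest (deepest blue) in Il6, Cxcl1, Ccl2 and Ccl5. Rod photoreceptors run opposite to most other rows, except in batch 2 of replicate 1 at 5 mM and batch 2 of replicate 3 at 25 mM.

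The genes whose levels followed each cytokine most closely were found by Pearson's r of log2 CPM over the 12 libraries, after the mean of each concentration was removed. These are descriptions, since technical partners share their source and all points share library depth and composition. Ccl2 was matched by Serinc5 (r = 0.996), by Ccl7 (0.993), its neighbour in the chemokine cluster, and by Rnf149 (0.985). Cxcl1 was matched by ENSMUSG00000121093 (0.992), by Ptgs2 (0.992), the inducible prostaglandin synthase, and by Ahnak (0.987), and Il6 by Casp4 (0.989), the sensor of cytosolic lipopolysaccharide, Gm49391 (0.987) and Ctla2b (0.987). The matches of Ccl3 were Vav1 (0.984), a signalling protein of blood-lineage cells, Cd300c2 (0.982), a myeloid receptor, and Tnfaip2 (0.977). Ccl5 was followed by Tmem88 (0.987), Krtap17-1 (0.986) and the myeloid Fc receptor Fcgr1 (0.985), Cxcl12 by Mapk6 (0.993), Adra1a (0.981) and Vmp1 (0.978), and Csf1 by Slc9a2 (0.975) and the transcription factors Fosl2 (0.972) and Ets1 (0.969). Looser matches were found for Ccl4, with Armc5 (0.970), Nkd1 (0.962) and Nup50 (0.959), and for Tnf, with Slc2a10 (0.939), Tmco4 (0.927) and the macrophage scavenger receptor Stab1 (0.925). Il1b was under the level of 1 CPM set for this search.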

How the data were processed

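RNA from 12 libraries of retinal explants was measured with the SMARTer Stranded Total RNA-Seq v2 Pico kit and paired-end reads. The authors deposited expected counts (estimated counts that need not be whole) for 53707 genes and 146263 transcripts, without normalization between libraries, and the submitters' processing notes name GRCm38. The aligner, counter and use of strand are not given in the sources used here. Symbols, positions and transcript lengths came from GENCODE M21.

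Technical replicates were summed and rounded, normalized by TMM, filtered with filterByExpr and tested by quasi-likelihood in edgeR 4.0.16, run as in version 3 of the package (R 4.3.3), with no replicate block and Benjamini-Hochberg adjustment over 21061 genes. The procedure was tested on simulated data. Sums and isoform shares used pandas 2.3.3, and exact permutation tests were two-sided. Totals of 14815285 to 36692484 limit counting error only, because reads amplified without molecular identifiers do not count molecules. There were 0 unused value columns.

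The 10 genes and the 18 lists were chosen with earlier results of these data known. Named beside them were every called gene of a pathway list and its 4 of greatest log2 fold change with at least 1 CPM, each receptor, the 2 most abundant genes of each cell type list, and the 3 genes most like each member. Some other genes of the cell type lists are named as well. Alternatives were library totals or RLE factors for scaling, limma-voom (limma 3.58.1), DESeq2 1.42.0, the newer edgeR method, other count filters, each batch alone, a replicate block, summed transcript counts, stricter thresholds and each replicate left out. The fit without both replicates of unlike technical libraries, also for the lists, and the test of the difference between batches were added after seeing the data. The results of some genes are left out here.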

Additional observations from a re-analysis of the deposited data

How the results depend on the processing

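Main limits are 3 replicates a concentration and technical partners that differ widely in Il6, Cxcl1, Ccl2 and Ccl5. DESeq2 called 2 of the 10 genes lower, Ccl3 (FDR 0.022) and Tnf (FDR 0.0452), where it called 9.54% of all genes lower. Batch 1 alone called 4, beside 10.1% of all genes. Leaving out 1 replicate called between 0 and 1, the 1 being Ccl3 without replicate 1 at 5 mM, a fit that called 14.9% of all genes lower. Without replicate 3 at 25 mM, 0.946% of all genes were called lower. The fits without replicate 2 or 3 at 5 mM, or without replicate 1 or 2 at 25 mM, called 0 of all genes tested. Their 0 of the 10 therefore says nothing particular to these genes. With a replicate block 1 was called lower, Ccl3 (FDR 0.0497), while 990 genes were called in place of 417. Same-numbered replicates did not deviate together (r of -0.014, -0.449 and 0.285), so the numbers were not taken to pair samples. The number of genes without overlap, 2 in the comparison, was 8 in batch 1, 0 in batch 2, 5 without both replicates of unlike technical libraries, and between 2 and 7 with 1 replicate left out. These were 5 without replicate 1 at 5 mM, beside 32.1% of all genes lower without overlap, 5 without replicate 2 at 5 mM, beside 18.0%, and 7 without replicate 3 at 25 mM, beside 23.9%.

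Directions turned in batch 2 alone for Ccl2 (0.29), Cxcl1 (0.35), Il6 (0.78), Csf1 (0.20) and the median of the 10 (0.24). In batch 1 alone they turned for Ccl5 (-0.05) and the median of other chemokines (-0.70). The Mueller glia median was 0.00 in batch 2 alone, beside -0.14 in the comparison. Il1b was -0.04 with limma-voom. With 1 replicate left out, Ccl5 ran from -0.01 to 0.86 and Il1b from -0.69 to 0.86, both lowest without replicate 3 at 25 mM. The Csf1-203 share difference was -1.03 points in batch 1, -0.228 in batch 2 and between -1.13 and 1.80 with 1 replicate left out. Over the alternatives the FDR ran from 0.0203 to 0.526 for Ccl3, from 0.0257 to 0.535 for Tnf, from 0.046 to 0.953 for Il6 and from 0.0337 to 0.805 for Csf1. The log2 fold changes of Ccl3, Ccl4, Cxcl12 and Tnf were below 0 in the 18 alternatives run for each. A filter of 1 CPM in 3 replicates removed Il1b. The causes were not tested.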
